A study of Oryza sativa with 21 samples.

Results

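The report covers 6 nuclear loci of rice (Oryza sativa), OS07G0556200 (PetC), OS06G0101600 (plastocyanin), OS08G0104600 (ferredoxin 1), OS06G0107700 (LFNR1), OS02G0103800 (LFNR2) and OS07G0513000 (AtpC). They were chosen by locus identifier, as carriers of photosynthetic electrons and the gamma subunit of the chloroplast ATP synthase, and they are 6 of the 91080 identifiers in the count table. RNA was sequenced from the second leaf from the top of field-grown plants, sampled in the morning at early heading. There were 7 lines of 3 libraries, 21 in all: WT, the unmodified wild type; OE-2, OE-3 and OE-4, which overexpress NRP1; and C-13, C-14 and C-16, made by CRISPR. The study's title calls NRP1 a negative regulator of photosynthesis and speaks of knocking it out, so the comparisons ask how leaf transcripts of the electron transport chain differ when NRP1 is overexpressed or edited. The sources used here do not give the promoter of the overexpression construct, the edits carried by each CRISPR line, the cultivar or the number of plants behind each library.

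In the thylakoid membrane, electrons leave photosystem II and pass through the cytochrome b6f complex, whose Rieske iron-sulfur subunit is PetC, to plastocyanin, a small copper protein of the lumen. Photosystem I hands them to ferredoxin on the stromal side, and ferredoxin-NADP+ reductase (FNR; the leaf forms are called LFNR1 and LFNR2) uses them to make NADPH. The proton gradient built up along the way drives the chloroplast ATP synthase, in which AtpC is the rotating gamma subunit that carries the redox switch of the enzyme.

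Library totals ranged from 13788243 to 19032786 counts, and the levels below are CPM, counts scaled to a common library size with edgeR's TMM correction. The locus taken as NRP1, OS07G0471900, stood at 2.46 ± 0.53 CPM in WT (SD, n = 3). It reached 273 to 398 CPM in the 9 OE libraries and 2.01 to 3.87 CPM in the 9 CRISPR libraries, where the level of a transcript does not check an edit. All 10 leaf photosynthesis markers were detected, and of 12 markers of other tissues CESA7 (secondary wall), OSH1 (meristem), RCc3 and Lsi2 (root) and GluB1 (seed) were at 0 in every library. Lsi1 (root) stood at 17.8 to 34.8 CPM, MADS16 (panicle) at 5.30 to 11.6 CPM and the other 5 at or under 1.87 CPM. On the second principal component of all genes the ends were OE-3 replicate 1 (76.93) and WT replicate 3 (-51.65), and the members' calls that rest on either are given below with and without it.

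The names of the 6 loci could not be checked, since none of them matched an entry of the RefSeq gene table used here. PetC, plastocyanin, ferredoxin 1 and AtpC carried high counts in every library. LFNR1 carried 6 to 30 reads per library and LFNR2 carried 137 to 335. Leaf-type FNR transcripts are known to be abundant in green leaves, while the counts at these loci were low. Whether the names are wrong or other identifiers hold those reads was not tested. The pair is best read as the loci OS06G0107700 and OS02G0103800. Counting error and the low level both limit what can be said of LFNR1.

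The 4 abundant members were higher in the CRISPR lines than in WT, whereas none of them was called in the OE lines as a group. A gene was called when its adjusted p in edgeR's quasi-likelihood test (Benjamini-Hochberg, over all 21044 genes tested) was under 0.05. In the mean of the CRISPR lines against WT, 4 of 6 members rose and 0 fell, where 5.34% of all genes tested rose and 6.37% fell. The median log2 fold change over the 6 members was 0.48, against 0.01 over all genes. In the mean of the OE lines 1 of 6 members, LFNR2, rose, where 1.48% of all genes rose and 3.19% fell, and the median over the members was 0.20. The OE and CRISPR contrasts share the 3 WT libraries. These are bulk leaf samples, in which a change in the number of cells of a type and a change in RNA per cell cannot be told apart.

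**Figure D1:**
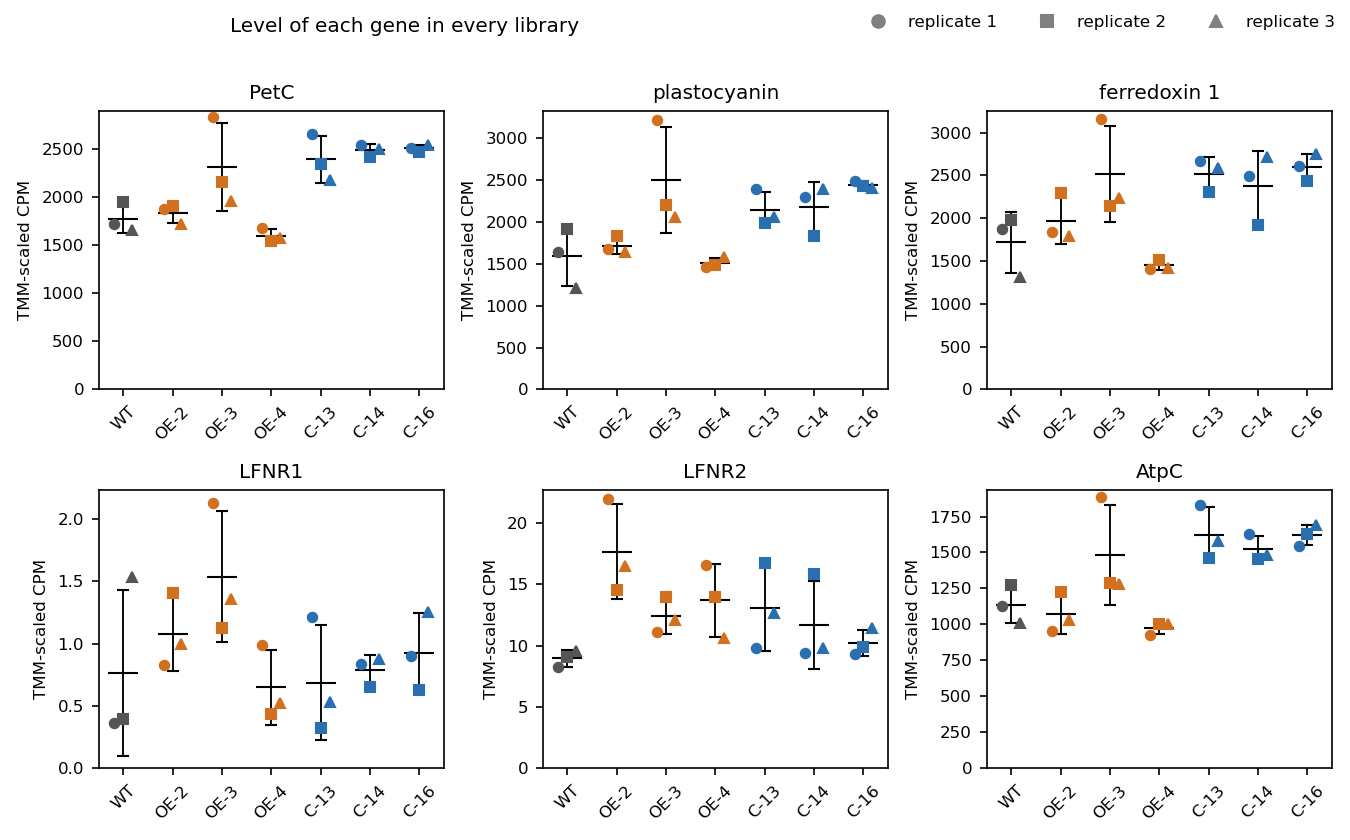
Level of each of the 6 loci in TMM-scaled CPM (y axis, a scale for each panel) in the 21 libraries, by line (x axis; grey WT, orange OE, blue CRISPR). Circle, square and triangle mark replicates 1, 2 and 3, and the bar gives mean ± SD of 3 libraries. For PetC and AtpC all 9 CRISPR libraries lie above the highest WT library, and OE-3 replicate 1 lies above the other OE libraries in the 4 abundant members.

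PetC, the Rieske subunit, stood at 1716, 1947 and 1660 CPM in WT replicates 1 to 3. The OE libraries stood at 1878, 1904 and 1720 CPM in OE-2, at 2827, 2152 and 1959 CPM in OE-3, and at 1675, 1540 and 1573 CPM in OE-4. The CRISPR libraries stood at 2653, 2345 and 2175 CPM in C-13, at 2540, 2411 and 2500 CPM in C-14, and at 2507, 2464 and 2543 CPM in C-16. All 9 CRISPR libraries were above the highest WT library, which 4% of all genes showed, and WT and the lines OE-2 and OE-4 overlapped. PetC was 1.39-fold higher in the CRISPR lines (log2 fold change 0.47, 95% interval 0.27 to 0.67, edgeR adjusted p = 0.00450). It was called in each line alone, with log2 fold changes of 0.43 (C-13), 0.49 (C-14) and 0.50 (C-16). In the OE lines it stood at 0.09 against WT (95% interval -0.11 to 0.29, edgeR adjusted p = 0.614).

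Plastocyanin, which carries electrons from cytochrome b6f to photosystem I, stood at 1642, 1914 and 1209 CPM in WT. The OE libraries stood at 1678, 1837 and 1640 CPM in OE-2, at 3224, 2207 and 2061 CPM in OE-3, and at 1463, 1485 and 1577 CPM in OE-4. The CRISPR libraries stood at 2391, 1992 and 2062 CPM in C-13, at 2303, 1833 and 2394 CPM in C-14, and at 2492, 2429 and 2410 CPM in C-16. WT replicate 3 was the lowest of all 21 libraries, and 8 of 9 CRISPR libraries were above the highest WT library, C-14 replicate 2 being the other. The CRISPR lines were 1.42-fold higher than WT (log2 fold change 0.50, 95% interval 0.22 to 0.79, edgeR adjusted p = 0.0218). Of the single lines C-16 was called at 0.62, while C-13 stood at 0.44 (edgeR adjusted p = 0.118) and C-14 at 0.45 (edgeR adjusted p = 0.121). In the OE lines plastocyanin stood at 0.23 against WT (95% interval -0.05 to 0.51, edgeR adjusted p = 0.330). That interval includes the value of the CRISPR lines.

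Ferredoxin 1, the acceptor of electrons from photosystem I, stood at 1869, 1979 and 1313 CPM in WT. The OE libraries stood at 1834, 2290 and 1788 CPM in OE-2, at 3157, 2147 and 2237 CPM in OE-3, and at 1407, 1515 and 1424 CPM in OE-4. The CRISPR libraries stood at 2669, 2300 and 2588 CPM in C-13, at 2489, 1921 and 2710 CPM in C-14, and at 2604, 2429 and 2746 CPM in C-16. Again WT replicate 3 was the lowest library and C-14 replicate 2 the lowest CRISPR library, the only CRISPR library within the WT range. At least 8 of 9 CRISPR libraries above the WT range was seen for 9.02% of all genes. The CRISPR lines were 1.45-fold higher than WT (log2 fold change 0.54, 95% interval 0.25 to 0.82, edgeR adjusted p = 0.0175). Of the single lines C-16 was called at 0.59, while C-13 stood at 0.55 (edgeR adjusted p = 0.0536) and C-14 at 0.46 (edgeR adjusted p = 0.120). In the OE lines ferredoxin 1 stood at 0.17 against WT (95% interval -0.12 to 0.45, edgeR adjusted p = 0.511).

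AtpC, the gamma subunit of the ATP synthase, stood at 1131, 1271 and 1011 CPM in WT. The OE libraries stood at 954, 1223 and 1033 CPM in OE-2, at 1886, 1289 and 1281 CPM in OE-3, and at 929, 1002 and 1001 CPM in OE-4. The CRISPR libraries stood at 1832, 1458 and 1577 CPM in C-13, at 1626, 1455 and 1483 CPM in C-14, and at 1545, 1632 and 1689 CPM in C-16. All CRISPR libraries were above the highest WT library, as for PetC. Those of OE-4 were just below the lowest, at 1002 CPM or less against 1011 CPM, and the share of all genes for this was not counted. The CRISPR lines were 1.40-fold higher than WT (log2 fold change 0.48, 95% interval 0.24 to 0.72, edgeR adjusted p = 0.0117), with C-13 and C-16 called at 0.51 each and C-14 at 0.42 (edgeR adjusted p = 0.0965). The OE lines stood at 0.03 against WT (95% interval -0.21 to 0.26, edgeR adjusted p = 0.926).

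LFNR2, listed as a leaf FNR, showed another pattern, with WT the lowest line. It stood at 8.22, 9.10 and 9.55 CPM in WT, at 22.0, 14.5 and 16.5 CPM in OE-2, at 11.1, 14 and 12.1 CPM in OE-3, and at 16.6, 13.9 and 10.6 CPM in OE-4. The CRISPR libraries stood at 9.80, 16.7 and 12.7 CPM in C-13, at 9.44, 15.8 and 9.84 CPM in C-14, and at 9.36, 9.89 and 11.4 CPM in C-16. All 9 OE libraries were above the highest WT library, which 1.78% of all genes showed. So were 7 of 9 CRISPR libraries, for which the share of all genes was not counted. The OE lines were 1.61-fold higher than WT (log2 fold change 0.69, 95% interval 0.30 to 1.08, edgeR adjusted p = 0.0396). The CRISPR lines stood at 0.38 (95% interval -0.01 to 0.76, edgeR adjusted p = 0.196). The OE call was lost without any 1 of the WT libraries, OE-2 replicates 1 or 3, or OE-4 replicates 1 or 2, with log2 fold changes of 0.63 to 0.74 and edgeR adjusted p between 0.0513 and 0.150. It was also lost without line OE-2 or OE-3, and with counts summed per line.

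LFNR1, the other locus listed as a leaf FNR, had line means between 0.648 CPM in OE-4 and 1.54 CPM in OE-3, and 0.765 ± 0.665 CPM in WT (SD, n = 3). WT alone spanned 0.364 to 1.53 CPM. The ranges of all neighbouring lines overlapped, and the locus was called in no comparison with all libraries. Without WT replicate 3, the WT library with the highest LFNR1, it was called in OE-3 (log2 fold change 1.98, edgeR adjusted p = 0.0245). Its 95% intervals were wide, from -0.81 to 1.03 on the log2 scale in the CRISPR lines and from -0.42 to 1.40 in the OE lines. No direction of change can therefore be given for this locus in either group.

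**Figure D2:**
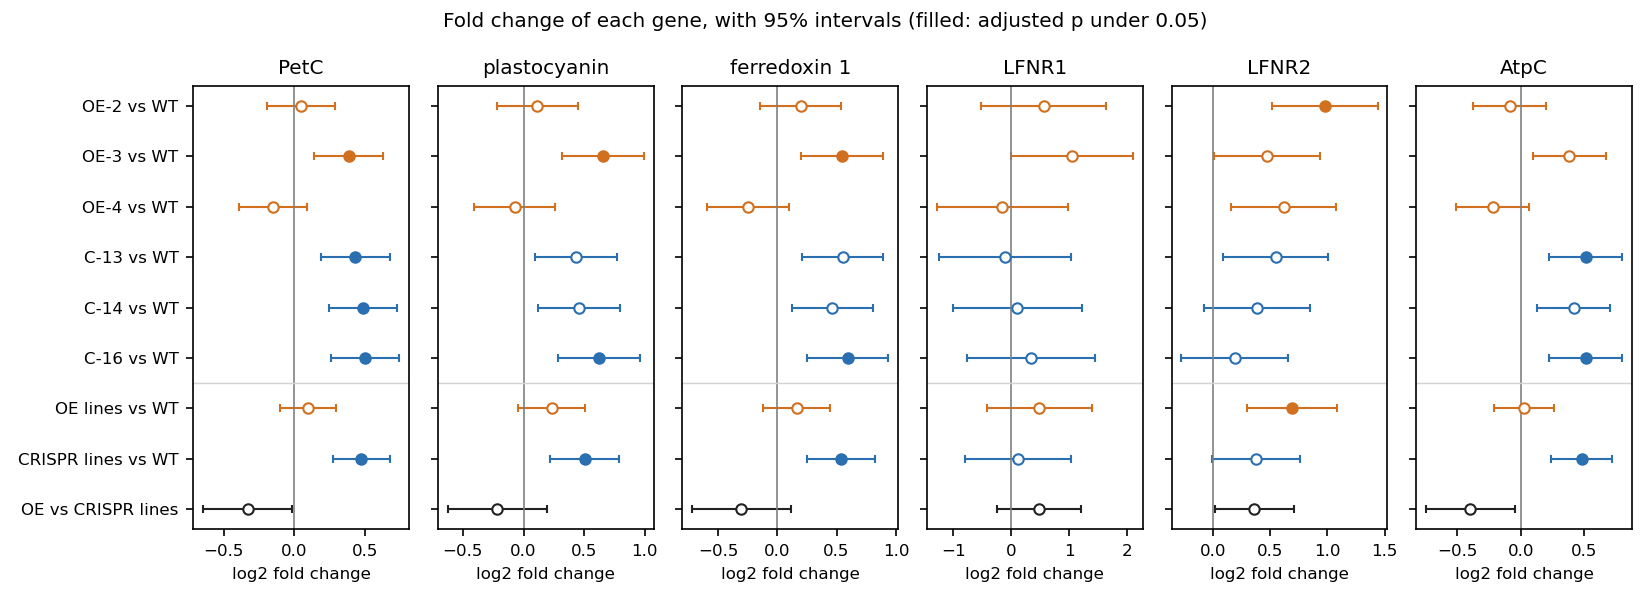
Log2 fold change of each locus (x axis, a scale for each panel) in 9 contrasts (y axis), with its 95% interval as a line. Filled points have an edgeR adjusted p under 0.05. The 4 abundant members lie between 0.42 and 0.62 in each CRISPR line, and LFNR2 is filled in OE-2 and in the mean of the OE lines.

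The rise in the CRISPR lines rested in part on the WT libraries. Without WT replicate 3, PetC remained called at 0.43 (edgeR adjusted p = 0.0222), while plastocyanin stood at 0.34 (0.137), ferredoxin 1 at 0.37 (0.112) and AtpC at 0.40 (0.0650). Without WT replicate 1 PetC was again the only member called, with edgeR adjusted p of 0.0536 to 0.0754 for the others, and without WT replicate 2 all 4 were called. Calls over all genes, in either direction, also fell without WT replicate 1, from 2464 to 668, so the loss was not particular to the members. PetC and AtpC, but not plastocyanin or ferredoxin 1, were called without line C-16. With counts summed per line, so that lines and not libraries are the samples and WT is 1 sample, 0 of 6 were called and 0 had an unadjusted p under 0.05. The values then stood between 0.43 and 0.48 for the 4 abundant members.

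**Figure D3:**
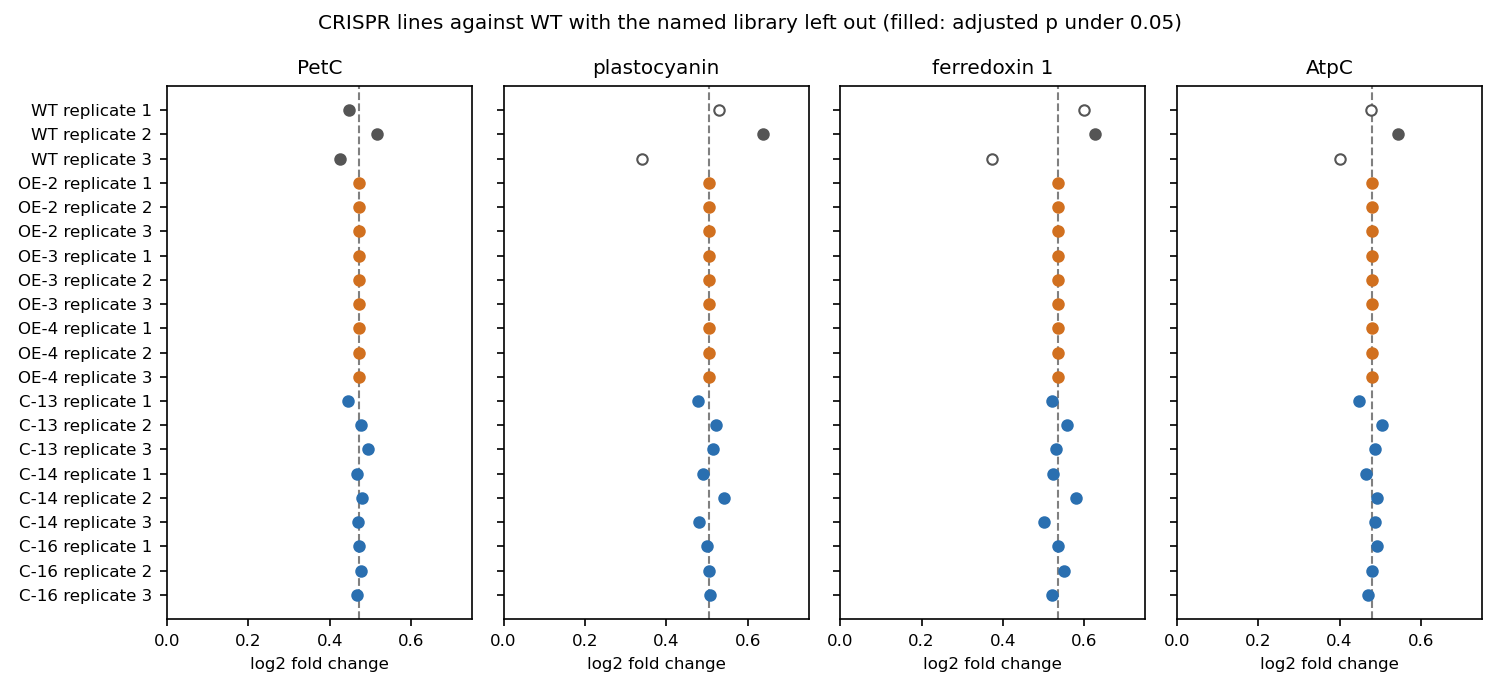
Log2 fold change of the CRISPR lines against WT for the 4 abundant members (x axis) with each of the 21 libraries left out in turn (y axis). Filled points have an edgeR adjusted p under 0.05. PetC is filled throughout, and the others are open without WT replicate 1 and without WT replicate 3.

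The summed level of the 10 leaf photosynthesis markers ranged from 61057 to 79312 CPM in WT, from 53396 to 75652 in OE and from 76653 to 88692 in CRISPR libraries, so WT and CRISPR ranges overlapped. Most of that sum was RCA, the rubisco activase, at 40185 to 65396 CPM. Scaling factors were 1.00 to 1.05 in WT and 0.926 to 0.984 in CRISPR libraries, and a lower factor raises CPM. The share of the 6 members in the unscaled counts was 0.538% to 0.715% in WT and 0.751% to 0.892% in CRISPR libraries. These summed shares did not overlap, and how often other sets of genes show this was not counted. In OE libraries the share was 0.595% to 1.05%, overlapping both. With DESeq2 size factors in place of TMM the same 4 members were called, at 0.46 to 0.52. The part of the markers' level in the rise of the members was not tested.

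The OE lines differed among themselves. An F test among OE-2, OE-3 and OE-4 called PetC, plastocyanin, ferredoxin 1 and AtpC (edgeR adjusted p between 0.0144 and 0.0167), 4 of 6 members where 9.82% of all genes were called. Without OE-3 replicate 1, 0 of 6 were called, and without OE-4 replicate 1 only PetC and plastocyanin were. Among the CRISPR lines the same test called 0 of 6 (0 with unadjusted p under 0.05, and 0 by DESeq2), where 0.442% of all genes were called. Over all 7 lines 5 members were called and LFNR1 was not, where 36.7% of all genes were, and LFNR2 was lost without WT replicate 1 or OE-2 replicate 1.

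OE-3 was the highest OE line for each of the 4 abundant members and OE-4 the lowest. Against WT, OE-3 was higher for PetC (0.38), plastocyanin (0.65) and ferredoxin 1 (0.55), 3 of 6 members where 7.81% of all genes rose, with AtpC at 0.38 (edgeR adjusted p = 0.0569). In OE-4, 0 of 6 members were called (1 with unadjusted p under 0.05, LFNR2; 0 by DESeq2), where 0.58% of all genes were, and the 4 stood between -0.25 and -0.07. OE-2 had LFNR2 alone, 1.97-fold higher (0.98, edgeR adjusted p = 0.0244), where 0.732% of all genes rose, and it stood between -0.09 and 0.20 for the 4. The OE-2 call was lost without any 1 of the WT libraries or OE-2 replicates 1 or 3. The calls in OE-3 were all lost without OE-3 replicate 1, at 0.21 for PetC, 0.43 for plastocyanin and 0.35 for ferredoxin 1. They were also lost without WT replicate 3 (0.34, 0.49 and 0.39), and with only the 6 libraries compared in the fit. Over all genes, calls in OE-3 in either direction fell from 3971 to 1567 without OE-3 replicate 1, and to 161 with only the 6 libraries compared. OE-3 replicate 1 held 2827 CPM of PetC, against 2152 and 1959 CPM in its sister libraries.

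Of the CRISPR lines against WT, C-13 had 2 of 6 members called (PetC and AtpC; 2.3% of all genes rose), C-14 had 1 (PetC; 1.8% rose) and C-16 had 4 (3.09% rose). These counts do not separate the lines, since the test among the CRISPR lines called none of the members. All calls in single CRISPR lines were lost without WT replicate 1, and with only the 6 libraries compared in the fit. Calls over all genes, in either direction, fell as well. Without WT replicate 1 they went from 1262 to 222 in C-13 and from 1342 to 331 in C-16. With only the 6 libraries compared they went to 764 in C-13, from 666 to 137 in C-14 and to 388 in C-16. Without WT replicate 3 PetC in C-16 was the only one kept.

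Pairs of OE lines were compared after the values had been seen. OE-3 was higher than OE-4 for PetC (0.54), plastocyanin (0.73), ferredoxin 1 (0.80) and AtpC (0.60), with edgeR adjusted p between 0.00468 and 0.00779, where 5.41% of all genes were higher. The locus taken as NRP1 stood at 0.08 between these lines (95% interval -0.16 to 0.33, edgeR adjusted p = 0.678). Without OE-3 replicate 1, PetC (0.37) and ferredoxin 1 (0.60) remained called, and plastocyanin (0.50) and AtpC (0.40) did not. OE-3 against OE-2 gave 0 of 6 calls (5 with unadjusted p under 0.05; DESeq2 called 1, AtpC), where 0.499% of all genes were called. OE-2 against OE-4 gave 0 (1 unadjusted, ferredoxin 1; 0 by DESeq2), where 1.2% were.

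The OE and CRISPR lines were compared without WT, on counts summed per line, 3 lines against 3. EdgeR called 0 of 6 members, where it called 17.4% of 22553 genes. PetC, LFNR2 and AtpC had an unadjusted p under 0.05, and DESeq2 called AtpC. PetC stood at -0.33 in OE relative to CRISPR lines (95% interval -0.65 to -0.02, edgeR adjusted p = 0.135) and AtpC at -0.40 (95% interval -0.75 to -0.05, edgeR adjusted p = 0.110). Plastocyanin stood at -0.22, ferredoxin 1 at -0.30 and LFNR2 at 0.36 (edgeR adjusted p = 0.137). For PetC and for AtpC 8 of 9 OE libraries were below the lowest CRISPR library, the exception being OE-3 replicate 1, and 5.34% of all genes had at least 8 such libraries. Without OE-3 replicate 1, PetC (-0.39) and AtpC (-0.48) were called lower in OE. Without line OE-3 all 4 abundant members were, between -0.62 and -0.47, and with libraries in place of lines as samples they were called between -0.46 and -0.27.

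The order of the line means was alike but not equal for the 4 abundant members. OE-4 was lowest for each. PetC ran from OE-4 (1596 CPM) through WT, OE-2, OE-3, C-13 and C-14 to C-16 (2505 CPM), and OE-2 and OE-3 were the only neighbours whose libraries did not overlap. For plastocyanin OE-3 was highest (2497 ± 633 CPM, SD, n = 3), and the gaps between OE-2 and C-13 and between C-14 and C-16 held no overlap. For ferredoxin 1 all neighbours overlapped, from OE-4 (1449 CPM) to C-16 (2593 CPM). For AtpC the only gap lay between WT (1138 ± 131 CPM) and OE-3 (1485 ± 347 CPM). The lines were ordered by these same means and the share of all genes with such gaps was not counted, so the gaps are description only.

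The 4 abundant members moved together from library to library. Pearson's r of log2 CPM over the 21 libraries was 0.893 to 0.945 for their pairs, and 0.657 to 0.918 after each line's mean was removed. The libraries share lines, leaf tissue and one scaling, and these values describe them with no test. LFNR2 ran the other way within lines, with r of -0.541 with plastocyanin, -0.555 with ferredoxin 1 and with AtpC, and -0.22 with PetC. In C-13 and C-14, for example, replicate 2 had the highest LFNR2 and the lowest plastocyanin and ferredoxin 1 of its line.

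**Figure D4:**
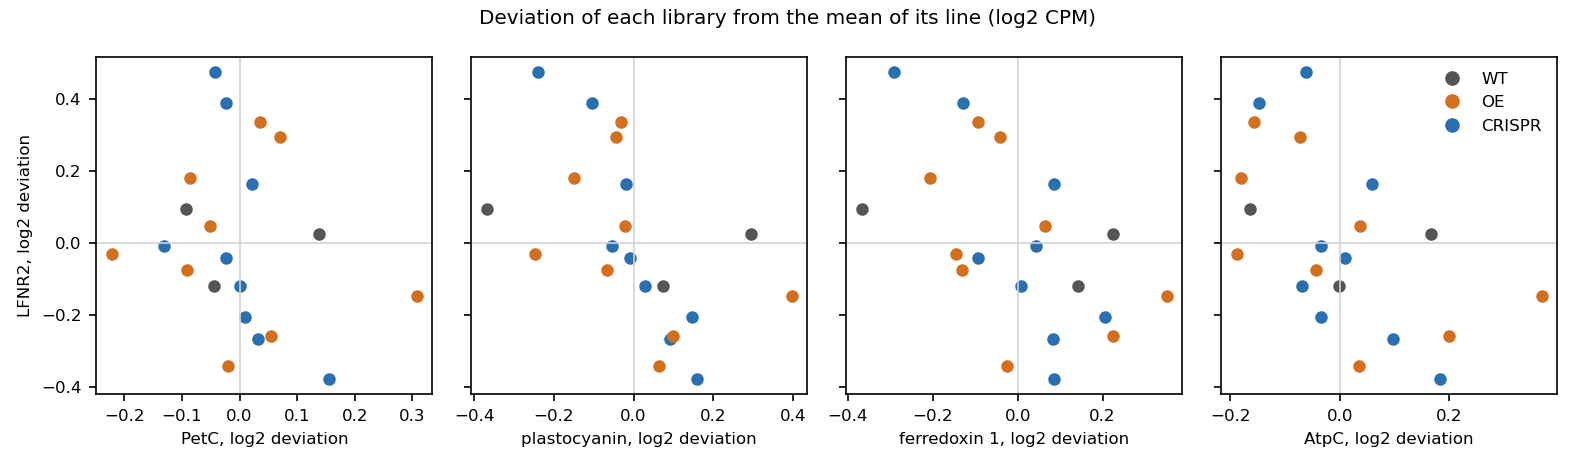
Deviation of each of the 21 libraries from the mean of its line in LFNR2 (y axis, log2) against that in PetC, plastocyanin, ferredoxin 1 and AtpC (x axis, log2), coloured by genotype. The points slope downward for plastocyanin, ferredoxin 1 and AtpC and less so for PetC.

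Ratios between members within a library, from which scaling drops out, show how far the members moved in proportion. PetC to AtpC ranged from 1.38 (C-13 replicate 3) to 1.97 (OE-2 replicate 1), with a median of 1.56. PetC to plastocyanin ranged from 0.877 in OE-3 replicate 1 to 1.37 in WT replicate 3, the ends of the second principal component. Plastocyanin to ferredoxin 1 ranged from 0.797 to 1.11. The ratios are of counts, not adjusted for transcript length, and serve only to compare libraries.

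By r over the 21 libraries, the leaf markers most like PetC were PsaE (photosystem I, 0.931) and GAPB (glyceraldehyde-3-phosphate dehydrogenase, 0.928). Those most like AtpC were PsbO (oxygen-evolving complex, 0.933) and GAPB (0.928), and PsbO was also nearest to plastocyanin (0.906) and ferredoxin 1 (0.914). Among all genes kept, OS03G0278900, listed as the ATP synthase subunit AtpG, was the most like PetC (0.973). OS02G0595700, with no name here, was the most like ferredoxin 1 (0.981), and OS03G0390600 the most like LFNR2 (0.93). No leaf marker followed LFNR2 or LFNR1 as closely, with the highest r at 0.478 (RBCS2) and 0.217 (PsaE).

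Other genes of the pathway were taken from a list of 14 loci, of which 13 were tested. In the CRISPR lines 3 of 13 rose and 0 fell against WT, with a median log2 fold change of 0.11, beside the 5.34% of all genes that rose and the all-gene median of 0.01 given above. AtpG (OS03G0278900), of the ATP synthase stator, went from 1169 ± 139 CPM in WT (SD, n = 3) to 1585 ± 33.1 CPM (SD over 3 line means), a log2 fold change of 0.44 (edgeR adjusted p = 0.0116). That call was lost without WT replicate 1 or WT replicate 3, with values of 0.37 to 0.51 and edgeR adjusted p of up to 0.0732 over all libraries left out, and with counts summed per line (adjusted p = 0.416). PGR5 (OS08G0566600), needed for cyclic electron flow around photosystem I, was called at 0.28 (edgeR adjusted p = 0.0408). Its call was lost in 18 of 30 alternatives, with each WT library left out among them, at edgeR adjusted p of up to 0.647. AtpD (OS02G0750100), the delta subunit, stood at 0.24 (edgeR adjusted p = 0.215). The loci listed as root-type FNR, RFNR1 (OS03G0784700) and RFNR2 (OS07G0147900), stood at -0.28 and -0.20 (edgeR adjusted p = 0.106 and 0.191). In OE-3 against WT 2 of 13 rose and 1 fell, where 7.81% of all genes rose. The 2 were AtpD (0.65, edgeR adjusted p = 0.00624) and PGR5 (0.50, edgeR adjusted p = 0.00390), and AtpG was not called (0.26, edgeR adjusted p = 0.149). Whether these calls rest on OE-3 replicate 1 was not tested.

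OS03G0857400, listed with less certainty as a copy of PGRL1, the partner of PGR5, had the smallest adjusted p of the list. It stood at 971 ± 158 CPM in WT, at 789 ± 33.1, 813 ± 15.7 and 781 ± 28.5 CPM in OE-2 to OE-4, and in the CRISPR lines at 1254 ± 53.9 (C-13), 1326 ± 78.2 (C-14) and 1349 ± 107 CPM (C-16; SD, n = 3). The means of the 3 OE lines lay below that of WT and those of the 3 CRISPR lines above it. The share of all genes with this order was not counted. The locus was named for its adjusted p in these same contrasts, so the order is description only. It rose in the CRISPR lines (0.43, edgeR adjusted p = 0.00337), a call lost in 1 of 30 alternatives, with counts summed per line. It was the 1 of 13 called lower in the OE lines (-0.29, edgeR adjusted p = 0.0478), where 3.19% of all genes fell. That OE call was lost in 22 of 30 alternatives. Among them were 17 of the 21 repeats with a library left out, and each repeat without an OE line. Between OE and CRISPR lines it stood at -0.68 (edgeR adjusted p = 0.00246), the 1 of 13 listed loci called where 17.4% of all genes were.

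**Figure D5:**
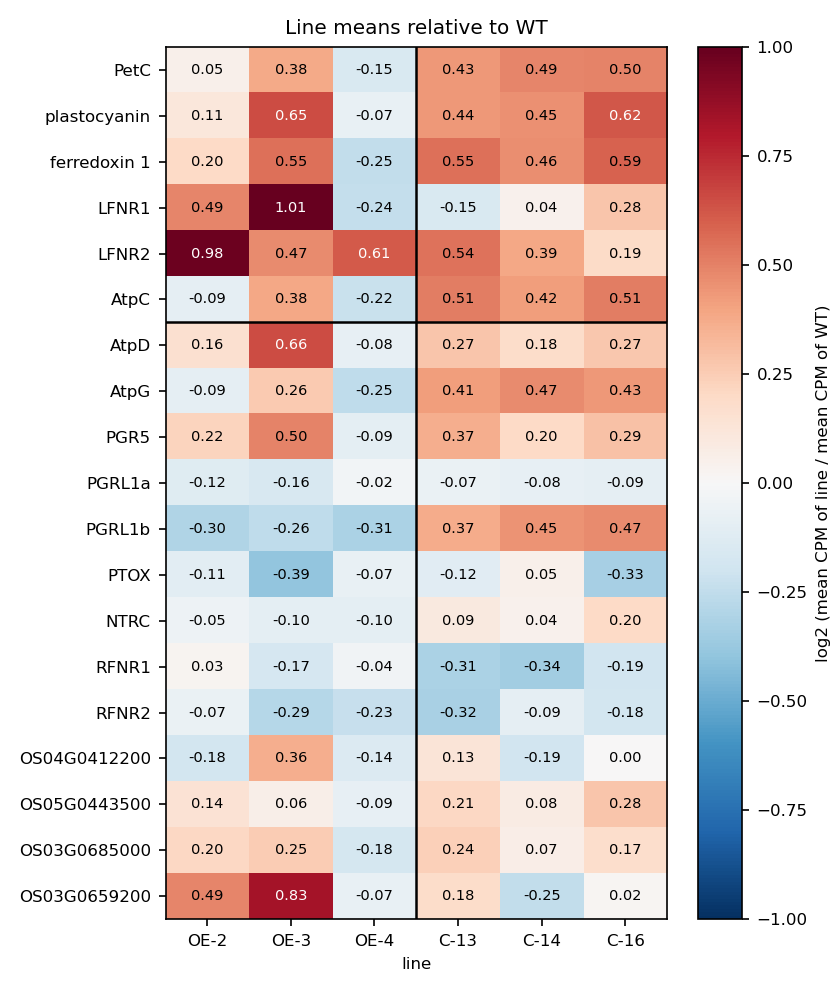
Log2 ratio of each line's mean CPM to the WT mean (colour, from -1 to 1) for the 6 members and the 13 other tested loci (y axis) in the 6 lines (x axis). PetC, plastocyanin, ferredoxin 1 and AtpC are high in the 3 CRISPR lines and in OE-3. AtpG is high in the CRISPR lines and stands at 0.26 in OE-3, where AtpD stands at 0.66 and PGR5 at 0.50. The locus listed as PGRL1b is low in the 3 OE lines and high in the 3 CRISPR lines.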

How the data were processed

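Raw counts per gene identifier were deposited by the authors as 1 table. The submitters' processing notes list the build IRGSP-1.0 and the tools STAR 2.5.3a, Trim Galore, FastQC and DESeq2, without saying what each did. No source used here names the read counter or says how it treated strand and multiply mapped reads, which makes counts of near-identical copies and overlapping genes uncertain. Of the 91080 identifiers, 56267 had no read. The deposited counts were tested with edgeR 4.0.16 in R 4.3.3 (quasi-likelihood F test, filterByExpr by line, TMM, the 7 lines as groups, 14 residual degrees of freedom), and intervals come from the log2 fold change and its standard error. OE and CRISPR lines were compared on counts summed per line. Adjusted p-values follow Benjamini and Hochberg over all genes kept, with a threshold of 0.05. All 6 members passed the filter.

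The members and all 8 gene lists were chosen with earlier results of these data known, and symbols of the lists and of NRP1 were paired with loci from general knowledge; 1 identifier of the table matched the RefSeq gene table. Named genes were the 6 members, NRP1, the 6 other listed pathway loci with the smallest adjusted p, and the genes most like each member. The alternatives tried were DESeq2 1.42.0 (its size factors or its test), a filter at a mean of 5 CPM or none, the replicate number as a block, a fit on just the libraries compared, lines summed or libraries kept apart, and each library or line left out. Whether replicates came from separate plants is not in the labels, and p-values therefore reflect only the spread between these samples, which may be technical. Pairs of libraries within a line varied by 6.01 to 31 times what Poisson counting gives, and none was a duplicate. Intervals cover the spread between libraries.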

Additional observations from a re-analysis of the deposited data

Results flagged for a closer look

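Among the 9 OE libraries OE-3 replicate 1 stood apart for 4 members. It held 2827 CPM of PetC against 2152 in the next library, 3224 of plastocyanin against 2207, 3157 of ferredoxin 1 against 2290, and 1886 of AtpC against 1289. The gap to the next library was 0.524, 0.578, 0.495 and 0.624 of the group's range, above Dixon's critical value for 9 libraries. For ferredoxin 1 it was only just above. In 12 groups tested, 4 had a library apart. Chance marks about 1 in 20 only where all libraries of a group share the same mean. The OE group pools 3 lines, and the F test among them called these 4 members, though not without OE-3 replicate 1. That rate therefore cannot be applied to them, and the part of the line difference in the gaps was not tested. The 4 members move together over libraries, so these are not separate observations. The same library lay at 1 end of the second principal component, and its part in the OE results is given by the values without it. Lines OE-3 and OE-4, both overexpressing NRP1, differed by 0.54 on the log2 scale in PetC, 0.73 in plastocyanin, 0.80 in ferredoxin 1 and 0.60 in AtpC. The locus OS03G0857400, listed as PGRL1b, differed by -0.68 between OE and CRISPR lines, from -0.71 to -0.66 with each library left out.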

How the results depend on the processing

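Of 3007 values recomputed for single genes, 2805 kept their direction and side of the threshold, 130 lost a call, 40 gained one and 32 changed sign, and the causes were not tested. Leaving out libraries moved the members called to 0 to 1 of 6 in OE-2, 0 to 4 in OE-3, 0 to 3 in C-13, 0 to 2 in C-14, 0 to 4 in C-16, 0 to 1 in the OE lines, 1 to 4 in the CRISPR lines, 0 to 2 between OE and CRISPR lines, 0 to 4 among OE lines, 4 to 5 among all 7 lines and 2 to 4 between OE-3 and OE-4. Between OE and CRISPR lines the replicate block also made libraries, not lines, the samples. The members called were then 5 (43.7% of all genes called, against 17.4%), and 4 with libraries as samples and no block (42.3%). They were 4 without line OE-3 (15.6%) and 1 by DESeq2 (20.6%), which also called 1 between OE-3 and OE-2. With only the 6 libraries compared, 0 were called in OE-3, C-13, C-14 and C-16. With counts summed per line 0 were called in the OE and 0 in the CRISPR lines, and without line OE-2 or OE-3 0 in the OE lines. Without line C-16 the CRISPR lines had 2. Replicate numbers do not pair the samples (median r of 0.0192 over 63 same-numbered pairs, 12 over 0.1; 10 of 21 libraries were most like one of their own number). In the other comparisons, where libraries were the samples throughout, the block did not change the count of members called.

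Without line OE-3 the OE lines stood at -0.052 for PetC, -0.026 for ferredoxin 1 and -0.15 for AtpC. Without line C-16 LFNR1 stood at -0.024 in the CRISPR lines. AtpG in the OE lines stood at 0.0060 without OE-2 and 0.093 without OE-4. Between OE and CRISPR lines RFNR2 stood at -0.019 without OE-2 and -0.026 without C-13, AtpD at -0.19 without OE-3, and PGR5 at 0.11 without OE-4 and 0.016 without C-13. With libraries left out, signs changed within -0.049 to 0.27 (plastocyanin, OE-2), -0.24 to 0.091 (plastocyanin, OE-4), -0.62 to 0.78 (LFNR1, OE-4), -0.78 to 0.82 (LFNR1, C-13), -0.25 to 1.04 (LFNR1, C-14), -0.018 to 1.27 (LFNR1, C-16), -0.24 to 1.04 (LFNR1, CRISPR lines), -0.053 to 0.12 (AtpC, OE lines), -0.094 to 0.078 (AtpG, OE lines), -0.085 to 0.013 (PGR5, OE against CRISPR lines) and -0.30 to 0.014 (LFNR2, OE-3 against OE-4). With libraries left out, calls over all genes ranged from 668 to 3040 in the CRISPR lines (main 2464). They ranged from 182 to 1658 in the OE lines (main 983) and from 2685 to 4883 between OE and CRISPR lines (main 3916). In the other settings they reached 2986 in the CRISPR lines (DESeq2) and 2220 in the OE lines (without line OE-4). Between OE and CRISPR lines they then ranged from 1545 to 9134. Against WT they were fewest with counts summed per line, where WT is 1 sample. Reads at LFNR1 and LFNR2 are few, which limits their precision.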
